A study of Mus musculus with 8 samples.

Results

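Coding m6A peaks that lay inside long exons were examined in mouse embryonic stem cells (ESCs) with and without induction of a Dux transgene. A peak was a member when it was a single uninterrupted block, its middle base lay in coding sequence (CDS) more than 200 nt upstream of the stop codon, and the exon holding that base was at least 400 nt long. Exons were those of the GENCODE vM21 (mm10) transcript with the longest CDS of each gene, on the strand of the peak. By this rule 8062 of the 31896 peaks in both lists were members. The list for DMSO held 4421 members among 18895 peaks (23.4%), and that for Dox 3641 among 13001 (28.0%).

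The data came from methylated RNA immunoprecipitation sequencing (m6A-seq), in which poly(A) RNA is broken into short fragments and the antibody-bound fraction, rich in m6A, is compared with the input RNA. All cells were of the E14 mouse ESC line and carried a doxycycline (Dox)-inducible Dux transgene and a tdTomato reporter driven by the MERVL promoter, and they were treated with DMSO or Dox for 24 h. The 8 libraries comprised 2 replicates of DMSO immunoprecipitate, DMSO input, Dox immunoprecipitate and Dox input. Both replicates of a treatment went into 1 peak list, so the spread between replicates could not be measured, and every interval below is a 95% interval that covers counting error only, and peaks are not replicates. No step that sorts the cells by the reporter is named for these libraries, so the Dox list was taken to describe whole cultures, and the number of reads behind each list was not analysed here.

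N6-methyladenosine is placed on messenger RNA during transcription by the METTL3-METTL14 complex and is read by YTH-domain proteins, several of which hasten the decay of the transcript. The enzyme prefers an adenosine within the consensus DRACH (D being A, G or U, R being A or G, H being A, C or U), of which GGAC is the best-known core. In mammals the mark is known to be common around stop codons and in unusually long internal exons, and proteins deposited at exon junctions during splicing are known to keep it away from their neighbourhood. Long coding exons are therefore a class of their own in the methylome, with much sequence far from any junction. DUX is a transcription factor of the 2-cell (2C) embryo, and its induction turns part of an ESC culture into 2C-like cells.

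The sequences below are those of members that the results turn on, read from the mm10 genome (GRCm38.p6) on the strand of the gene, 5′ to 3′, with every GGAC in capitals. Members longer than 300 nt are shown by 300 bases around their middle. The first set holds the best-scoring DMSO members, in Rps19 (a protein of the small ribosomal subunit, chr7:24888897-24888971) and Hnrnpl (a splicing regulator, chr7:28818460-28818534), and the best-scoring DMSO member of Actb (β-actin, chr5:142904410-142904534), which no Dox peak overlapped.

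Rps19, DMSO: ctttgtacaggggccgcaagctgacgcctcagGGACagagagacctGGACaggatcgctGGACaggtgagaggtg
Hnrnpl, DMSO: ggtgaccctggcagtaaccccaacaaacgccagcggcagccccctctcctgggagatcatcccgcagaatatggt
Actb, DMSO: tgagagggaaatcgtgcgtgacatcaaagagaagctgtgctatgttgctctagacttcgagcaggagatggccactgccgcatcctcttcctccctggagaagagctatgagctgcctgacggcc

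The next set holds the best-scoring Dox members, in the 2C-stage genes Tcstv1 (chr13:119893838-119893887) and Zscan4c (chr7:11006589-11006888, within a member of 325 nt) and in Morf4l2 (a gene of the chromatin-associated MRG family, chrX:136733917-136734191). No DMSO peak overlapped those of Tcstv1 and Zscan4c.

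Tcstv1, Dox: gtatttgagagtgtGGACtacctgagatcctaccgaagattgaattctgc
Zscan4c, Dox: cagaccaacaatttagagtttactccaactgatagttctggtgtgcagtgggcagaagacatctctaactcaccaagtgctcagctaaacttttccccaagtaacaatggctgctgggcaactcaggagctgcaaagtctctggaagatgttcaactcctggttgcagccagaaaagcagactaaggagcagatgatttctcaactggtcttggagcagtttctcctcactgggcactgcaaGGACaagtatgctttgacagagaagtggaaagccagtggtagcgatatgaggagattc
Morf4l2, Dox: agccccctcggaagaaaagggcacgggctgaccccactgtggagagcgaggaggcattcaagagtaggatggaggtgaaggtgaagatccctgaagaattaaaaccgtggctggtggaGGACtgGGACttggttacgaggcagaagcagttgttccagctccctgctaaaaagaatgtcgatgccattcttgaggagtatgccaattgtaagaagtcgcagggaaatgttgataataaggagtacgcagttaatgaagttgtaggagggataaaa

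The last set shows members of genes described further on, namely Sox2 (a pluripotency factor, chr3:34650967-34651266, DMSO), Ythdf2 (an m6A reader, chr4:132204496-132204795, Dox), Mki67 (a protein that coats mitotic chromosomes, chr7:135696840-135697014, Dox), Ahnak (a giant scaffold protein, chr19:9005364-9005488, Dox) and Rex2 (a zinc-finger gene, chr4:147057871-147058170, DMSO).

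Sox2, DMSO: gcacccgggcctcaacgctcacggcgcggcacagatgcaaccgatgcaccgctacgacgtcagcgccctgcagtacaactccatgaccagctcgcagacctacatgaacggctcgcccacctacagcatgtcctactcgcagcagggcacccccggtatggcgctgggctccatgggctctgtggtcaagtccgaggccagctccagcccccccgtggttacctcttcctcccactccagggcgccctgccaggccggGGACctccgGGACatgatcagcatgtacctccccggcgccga
Ythdf2, Dox: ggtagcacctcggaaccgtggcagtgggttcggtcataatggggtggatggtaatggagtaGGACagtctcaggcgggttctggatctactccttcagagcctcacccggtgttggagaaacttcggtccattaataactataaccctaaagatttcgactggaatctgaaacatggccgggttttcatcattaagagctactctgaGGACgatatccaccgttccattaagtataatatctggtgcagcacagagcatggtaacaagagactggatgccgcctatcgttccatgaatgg
Mki67, Dox: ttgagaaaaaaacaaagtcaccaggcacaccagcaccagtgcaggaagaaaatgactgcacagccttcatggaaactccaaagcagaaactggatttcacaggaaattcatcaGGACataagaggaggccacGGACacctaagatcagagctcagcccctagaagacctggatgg
Ahnak, Dox: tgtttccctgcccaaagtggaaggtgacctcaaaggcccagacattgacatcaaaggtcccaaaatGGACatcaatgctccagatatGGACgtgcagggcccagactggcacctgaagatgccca
Rex2, DMSO: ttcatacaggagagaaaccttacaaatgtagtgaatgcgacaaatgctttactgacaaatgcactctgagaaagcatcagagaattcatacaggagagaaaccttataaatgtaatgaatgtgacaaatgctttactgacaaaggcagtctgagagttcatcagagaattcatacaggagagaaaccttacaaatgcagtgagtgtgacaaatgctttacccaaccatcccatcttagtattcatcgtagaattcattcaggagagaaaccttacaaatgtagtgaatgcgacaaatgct

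GGAC was thus carried 3 times by the 75 bases of the Rps19 member and 2 times by the Ahnak member, whereas the Hnrnpl and Actb members held none, and each of these held 2 DRACH matches. The Rex2 window held no GGAC but 8 DRACH matches.

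The members were spread over many transcripts. The DMSO members lay in 1913 genes and the Dox members in 1652, that is in 14.8% and 12.8% of the 12939 annotated genes with coding sequence in a long exon more than 200 nt upstream of the stop (eligible bases below). These 12939 genes were counted whether or not they were expressed, and only 5814 and 4674 of all coding genes carried any DMSO or Dox peak. They also differ in eligible length, so shares of gene lists set beside 14.8% and 12.8% below do not measure enrichment. In all, 2118 genes carried a member in either list, 1447 in both, 466 with DMSO alone and 205 with Dox alone. A single DMSO member was carried by 910 genes and a single Dox member by 835, while 205 genes had 5 or more for DMSO and 146 for Dox. The 2575 exons with a member had a median length of 1149 nt, and the longest was exon 5 of Ahnak with 17498 nt.

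The lists differed less in long exons than over all peaks. There were 1.21 DMSO members per Dox member (1.16 to 1.27), against 1.45 (1.42 to 1.49) for all peaks, 1.67 (1.57 to 1.78) for coding peaks in shorter exons and 1.84 (1.74 to 1.94) for coding peaks that crossed a splice junction. Peaks in 5′ untranslated regions, with 1.29 (1.14 to 1.45), and within 200 nt of the stop codon, with 1.32 (1.26 to 1.38), came closest. The intervals of both overlapped that of the members. Members thus made up a larger share of the Dox list than of the DMSO list, by 4.61 percentage points (3.63 to 5.59). Peaks near the stop codon also held a larger share of the Dox list, by 2.21 points (1.27 to 3.15), and 5′ untranslated peaks by 0.419 points (0.0134 to 0.835). Coding peaks in shorter exons and across junctions, and 3′ untranslated peaks, held smaller shares. The excess of the members was 5.97 points (4.92 to 7.02) when the DMSO list was trimmed to its 13001 best-scoring peaks. However, the ratio of counts then turned to 0.787 (0.749 to 0.827), with 2865 DMSO members. With a common minimum score, the median of the DMSO list, the ratio was 1.32 (1.23 to 1.42). At equal list sizes the ratio of counts only restates the ratio of the shares. The common minimum score still left lists of unequal size, 9448 DMSO and 5921 Dox peaks. Neither setting can therefore tell what the excess of DMSO members depended on. The share of members was larger in the Dox list in both, by 4.12 points (2.77 to 5.48) with the common minimum score.

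**Figure D1:**
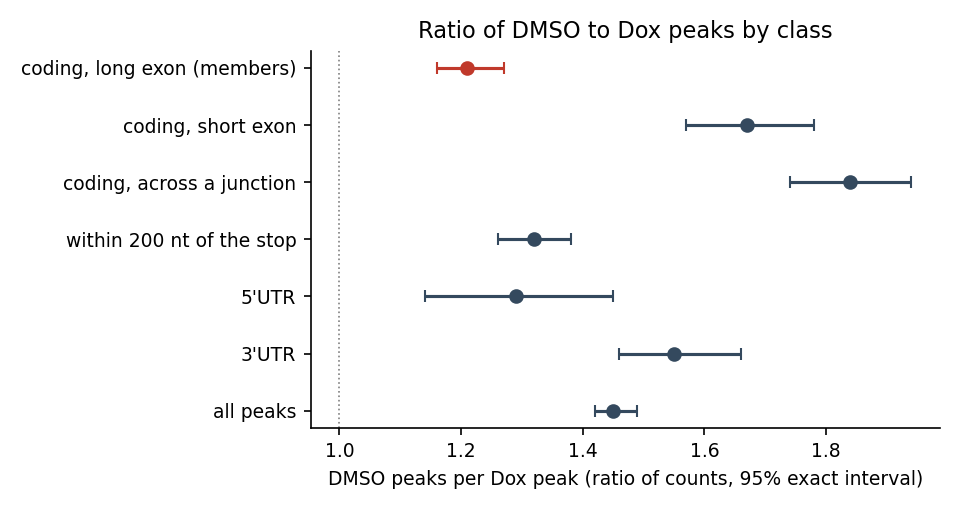
Ratio of the number of DMSO peaks to Dox peaks (x axis, no unit) for each class of peaks (y axis), with 95% exact intervals as bars and the members in red. The members had a ratio of 1.21, below the 1.45 of all peaks, and the coding peaks across a junction the highest, 1.84.

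Members were somewhat longer than peaks in general. Their median length was 150 nt in both lists, against 125 nt for all peaks, with quartiles of 75 and 300 nt for DMSO and of 75 and 275 nt for Dox, and the longest member reached 3550 nt and 3775 nt. Coding peaks in shorter exons had a median of 50 nt and spliced coding peaks one of 175 nt. A length of 600 nt or more was reached by 8.30% of DMSO members and 6.98% of Dox members, against 4.83% and 4.42% of all peaks. The score, which is −log10 of the p-value from the peak caller and grows with the number of reads as well as with enrichment, had a median of 11.45 in DMSO members and 11.37 in Dox members, slightly below the 11.64 and 11.51 of all peaks.

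Long coding exons carried peaks far more densely than short ones. In genes with a peak in the DMSO list, 30.4% of the coding bases more than 200 nt upstream of the stop lay in long exons, and these held 63.0% of the single-block coding peaks. The densities were 1.33 members per kb in long exons and 0.341 peaks per kb in short exons, a ratio of 3.90 (3.71 to 4.09). In the Dox list 31.9% of the bases held 70.1% of the peaks, with 1.30 and 0.259 per kb and a ratio of 5.01 (4.72 to 5.32). Part of this contrast belongs to the rule, because a peak in a short exon is easily cut by a junction and then counts as spliced. When spliced peaks were assigned by their middle base, the ratio fell to 2.03 (1.95 to 2.11) in the DMSO list and 2.75 (2.62 to 2.88) in the Dox list, and stayed above 1.

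Within the long exons, members kept a distance from splice junctions. In the DMSO list there were 0.403 members per kb less than 100 nt from a junction, 1.38 per kb from 100 to 200 nt, 1.81 from 200 to 400 nt, 1.55 from 400 to 800 nt and 1.32 at 800 nt or more. The corresponding Dox densities were 0.362, 1.35, 1.82, 1.48 and 1.26 per kb. The density from 200 to 400 nt thus exceeded that next to the junction 4.49-fold (3.90 to 5.18) in the DMSO list and 5.03-fold (4.29 to 5.94) in the Dox list. With spliced peaks added by their middle base these ratios were 2.68 (2.41 to 2.99) and 3.10 (2.74 to 3.52). The share of bases under any peak, which does not depend on how a peak is classed, rose from 25.6% less than 100 nt from a junction to 49.7% from 200 to 400 nt in the DMSO list, and from 20.4% to 44.6% in the Dox list. GGAC was about as frequent next to junctions, 5.26 per kb less than 100 nt against 5.17 per kb from 200 to 400 nt in the genes with DMSO peaks.

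**Figure D2:**
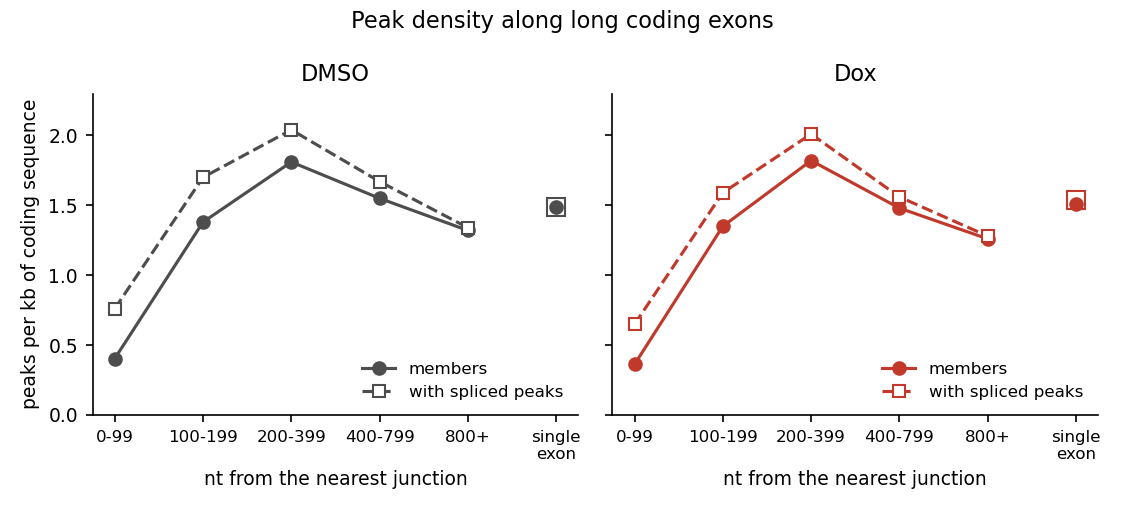
Peaks per kb of long-exon coding sequence (y axis) by the distance of their middle base from the nearest splice junction in nt (x axis), for members (filled circles) and with spliced peaks added (open squares), in the DMSO list (left) and the Dox list (right). Density was lowest less than 100 nt from a junction, peaked from 200 to 400 nt with 1.81 and 1.82 members per kb, and declined farther away.

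Beyond 400 nt the density declined again in both lists. At 800 nt or more it was 0.726 times (0.668 to 0.790) that from 200 to 400 nt in the DMSO list and 0.693 times (0.631 to 0.761) in the Dox list, and GGAC itself fell to 4.24 and 4.45 per kb there. Genes with a single exon, which have no junction, carried 1.49 and 1.51 members per kb. Their GGAC density was the highest, 6.17 and 6.07 per kb.

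Long exons were not all marked alike. Of the internal long exons of genes with DMSO peaks, 67.3% (65.1 to 69.3) held a member, against 20.7% (18.3 to 23.4) of the first exons and 37.0% (34.9 to 39.3) of the last exons. Since much of a first or last exon can be untranslated or near the stop codon, the density per coding base is the fairer measure. On that scale last exons equalled internal ones, with a ratio of 1.01 (0.949 to 1.08), but first exons remained lower, with 0.901 against 1.37 members per kb and a ratio of 0.657 (0.584 to 0.737). The Dox list gave 0.603 (0.527 to 0.688) for first against internal exons. By length, exons of 400 to less than 800 nt had 1.19 members per kb in the DMSO list, 0.837 times (0.768 to 0.913) the 1.42 per kb of exons of 800 to less than 1600 nt, and exons of 3200 nt or more had 1.32 per kb, a ratio whose interval reached 1 (0.929, 0.855 to 1.01).

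Along the CDS cut into 3 equal parts, 32.3% of DMSO members lay in the first part, 38.5% in the middle and 29.2% in the last. Dox members divided in almost the same way, 32.4%, 38.8% and 28.9%. The last part is shortened by the rule, which left out the 200 nt before the stop.

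GGAC was frequent in the members. Searched on the strand of the RNA, it was present in 61.1% (59.6 to 62.5) of DMSO members and 62.5% (60.9 to 64.0) of Dox members. In coding peaks of shorter exons the shares were 29.7% and 27.8%, and in spliced coding peaks 56.8% and 58.5%. A longer window holds more motifs, so peaks of like length were compared. Among DMSO peaks of over 50 to 150 nt, 56.1% of members and 41.1% of peaks in shorter exons held GGAC, a difference of 15.0 points (10.9 to 19.1). Among Dox peaks of that length the difference was 14.1 points (9.02 to 19.0). The gap was smaller at other lengths for DMSO, with 4.81 points (1.74 to 7.92) at 50 nt or less and 5.87 points (-1.01 to 13.6) from over 150 to 300 nt, where the interval included 0. For Dox these differences were 12.4 points (8.78 to 16.0) and 12.5 points (4.18 to 21.7). Spliced coding peaks of over 50 to 150 nt also held GGAC less often than members did, by 14.8 points (10.9 to 18.7) in the DMSO list, but over 300 nt the difference was 1.63 points (-0.803 to 4.15). Peaks within 200 nt of the stop codon differed from members of that length by 0.615 points (-3.32 to 4.55) in the DMSO list and -0.893 points (-5.24 to 3.46) in the Dox list, intervals that include 0.

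Within the same exons, motifs were denser inside members than in bases outside any peak. GGAC occurred 6.29 times per kb inside DMSO members and 3.52 times per kb outside, a ratio of 1.78 (1.72 to 1.85), and the Dox ratio was 1.77 (1.70 to 1.84). The 18 DRACH words were not alike. GGACA and GGACT had the largest ratios in the DMSO list, 2.18 (2.03 to 2.33) and 2.00 (1.84 to 2.16), followed by GAACT with 1.82 (1.68 to 1.97) and AGACT with 1.58 (1.47 to 1.70). TAACA was rarer inside members than outside, with 0.873 (0.774 to 0.985), and TGACC showed a ratio of 1.00 (0.929 to 1.08). The Dox list ordered the first 3 in the same way, GGACA with 2.07, GGACT with 1.93 and GAACT with 1.70, while its TAACA ratio of 0.903 (0.788 to 1.03) had an interval that included 1. Taken over all DRACH words, the ratio was 1.34 (1.32 to 1.36) in the DMSO list.

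GGAC peaked at the middle of the members. In the 50-nt bin at the middle base its density was 7.40 per kb in DMSO members and 7.82 per kb in Dox members, and by 150 nt on either side it was down to 4.17 to 4.51 per kb. Its reverse complement GTCC did not rise there and stood at 3.48 and 3.31 per kb.

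**Figure D3:**
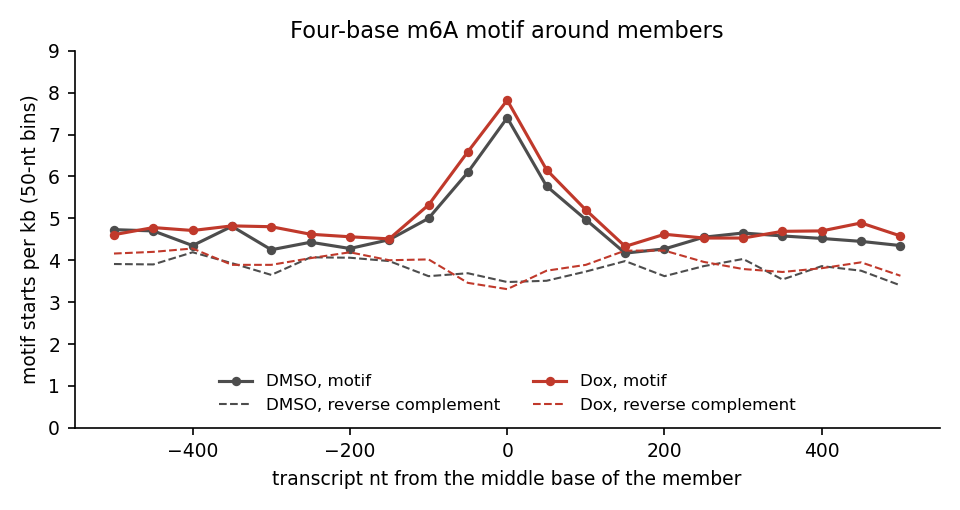
Density of GGAC starts (solid lines with points) and of the reverse complement GTCC (dashed lines) per kb, in 50-nt bins (y axis), by the distance in transcript nt from the middle base of the members (x axis), for the DMSO list (grey) and the Dox list (red). GGAC rose from between 4 and 5 per kb in the flanks to 7.40 and 7.82 per kb at the middle base, and GTCC did not rise.

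Since members are coding, GGAC can also be read as codons. In 57.4% of the cases inside DMSO members, GAC was a codon for aspartate preceded by a G at the last codon position, against 55.3% outside any peak in the same exons, a difference of 2.18 points (0.308 to 4.04). The frame with GGA as a glycine codon was correspondingly less frequent inside, 23.1% against 25.3% (-2.16 points, -3.78 to -0.550). In the Dox list the aspartate frame differed by 3.07 points (1.10 to 5.03) and the glycine frame by -1.61 points (-3.31 to 0.0754).

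Most Dox members overlapped a DMSO peak, whereas a large share of DMSO members had no Dox counterpart. A Dox peak shared at least 1 base with 2616 of the 4421 DMSO members (59.2%, 57.7 to 60.6), against 57.0% of all DMSO peaks. A DMSO peak overlapped 3360 of the 3641 Dox members (92.3%, 91.4 to 93.1), against 92.7% of all Dox peaks. Both shares were thus close to those of all peaks. Coding peaks of shorter exons were overlapped less often in the DMSO list, 33.0%, but that gap went with length: among peaks of 50 nt or less, 17.2% of members and 15.7% of peaks in shorter exons were overlapped, and among those of over 50 to 150 nt, 42.9% and 46.4%, with intervals of the differences that included 0. From over 150 to 300 nt members were overlapped less often, with a difference of -8.55 points (-13.1 to -2.56). DMSO peaks near the stop codon were overlapped more often than members, 54.7% against 42.9% from over 50 to 150 nt, a difference of -11.8 points (-15.7 to -7.84), and 91.6% against 80.7% from over 150 to 300 nt, a difference of -10.9 points (-13.7 to -8.12). Over 300 nt, 98.7% of DMSO members were overlapped. Score moved with overlap as well, from 30.1% (27.9 to 32.3) of DMSO members in the lowest part of the list's scores, split in 3, to 86.1% (83.9 to 88.1) in the highest.

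Members that overlapped were usually wider in the DMSO list. Of 1908 pairs in which 1 DMSO member met 1 Dox member and no other peak, the DMSO member was the longer in 1389 (72.8%), the Dox member in 258 (13.5%), and 261 had equal lengths, 204 of them with identical ends. The medians were 225 nt and 175 nt. In addition, 439 DMSO members (9.93%) each met 2 or more Dox peaks, whereas 108 Dox members (2.97%) met 2 or more DMSO peaks. The DMSO member with most Dox peaks under it lay in exon 12 of Mki67, was 2450 nt long and met 11 of them, which covered 44.9% of it.

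Counts of members and of bases were compared over the same genes. Of the 1447 genes with members in both lists, 455 had more DMSO members, 338 more Dox members and 654 as many, whereas by long-exon coding bases under any peak 1182 had more in the DMSO list, 170 more in the Dox list and 95 the same. Over all 2118 genes, 921 had more DMSO members and 543 more Dox members, and by bases 1731 had more in the DMSO list, 282 more in the Dox list and 105 the same. Among the 261 genes with at least 5 members in a list, 248 had more bases under DMSO peaks and 12 under Dox peaks. Of the 338 genes with members in both lists and more of them in the Dox list, 299 had more bases under DMSO peaks.

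**Figure D4:**
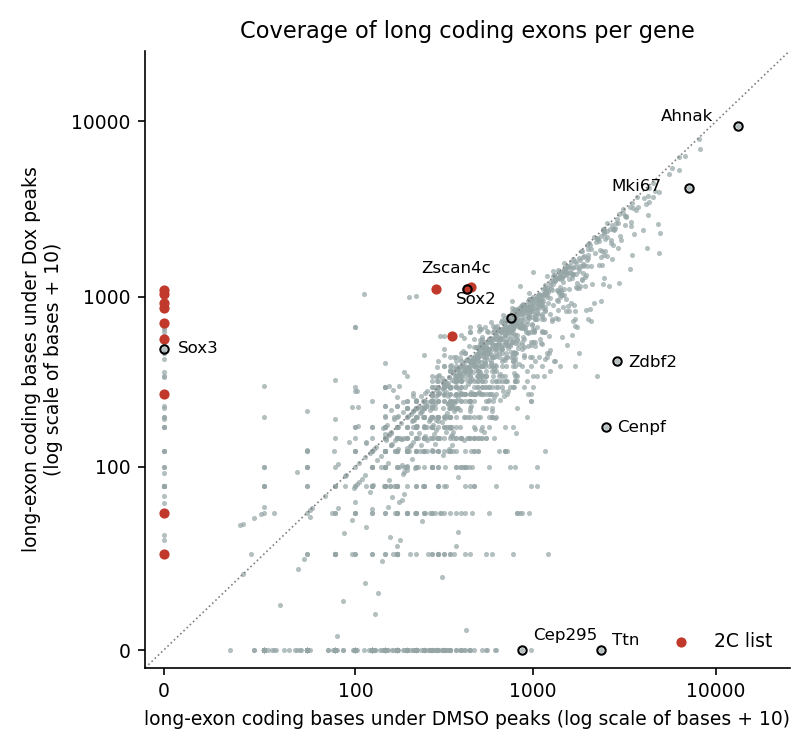
Long-exon coding bases under any DMSO peak (x axis) and under any Dox peak (y axis) for each of the 2118 genes with a member, on a logarithmic scale of bases + 10, with the diagonal dotted, the 2C list in red and named genes circled. Most genes lay below the diagonal, Cenpf, Zdbf2, Ttn and Cep295 among the farthest, while the 13 genes of the 2C list lay above it.

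The genes with most members encode giant proteins. Ahnak had 28 DMSO and 44 Dox members, yet the DMSO peaks covered 80.1% of its 16423 eligible bases and the Dox peaks 57.2%. Of its Dox members, 12 had a near-identical second locus in the genome (at least 90% of the member aligned at 98% identity or more), as had 1 of its DMSO members. Such a locus could lie in the same gene, because only the member's own position was set aside. Mki67 carried 8 DMSO and 24 Dox members, which together with other peaks covered 88.4% and 51.8% of its eligible bases. Golgb1, encoding the Golgi protein giantin, had 15 and 20 members over 65.7% and 23.9%. Plec, encoding the cytolinker plectin, had 20 and 22 members over 49.8% and 23.4%. In Fat1, an atypical cadherin, 12 and 17 members went with 85.0% and 71.8% of the bases under peaks.

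In other giant genes the number of members fell with the covered bases. Zfhx3, a homeobox transcription factor, had 25 DMSO and 17 Dox members over 47.6% and 25.5% of its eligible bases. Cenpf, a kinetochore-associated protein, had 16 DMSO members but 3 Dox members, and the covered share was 37.5% against 2.60%. In its exon 13 alone 11 DMSO members faced 1 Dox member. Bod1l, which protects replication forks, had 14 and 8 members over 45.3% and 18.3%, and Zdbf2, an imprinted gene with an exon of 11937 nt, had 12 and 5 members over 40.6% and 5.98%. Ttn, encoding the muscle protein titin, carried 18 DMSO members in 40792 eligible bases and no Dox peak in them. No Dox peak covered an eligible base of Cep295 (a centriole protein, 11 DMSO members), Zfp638 (a nuclear zinc-finger protein, 9), Cux1 (a homeobox factor, 6) or Lats1 (a Hippo pathway kinase, 6) either. The level of these transcripts was not analysed here, and less methylation and less RNA cannot be told apart in a peak list.

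**Figure D5:**
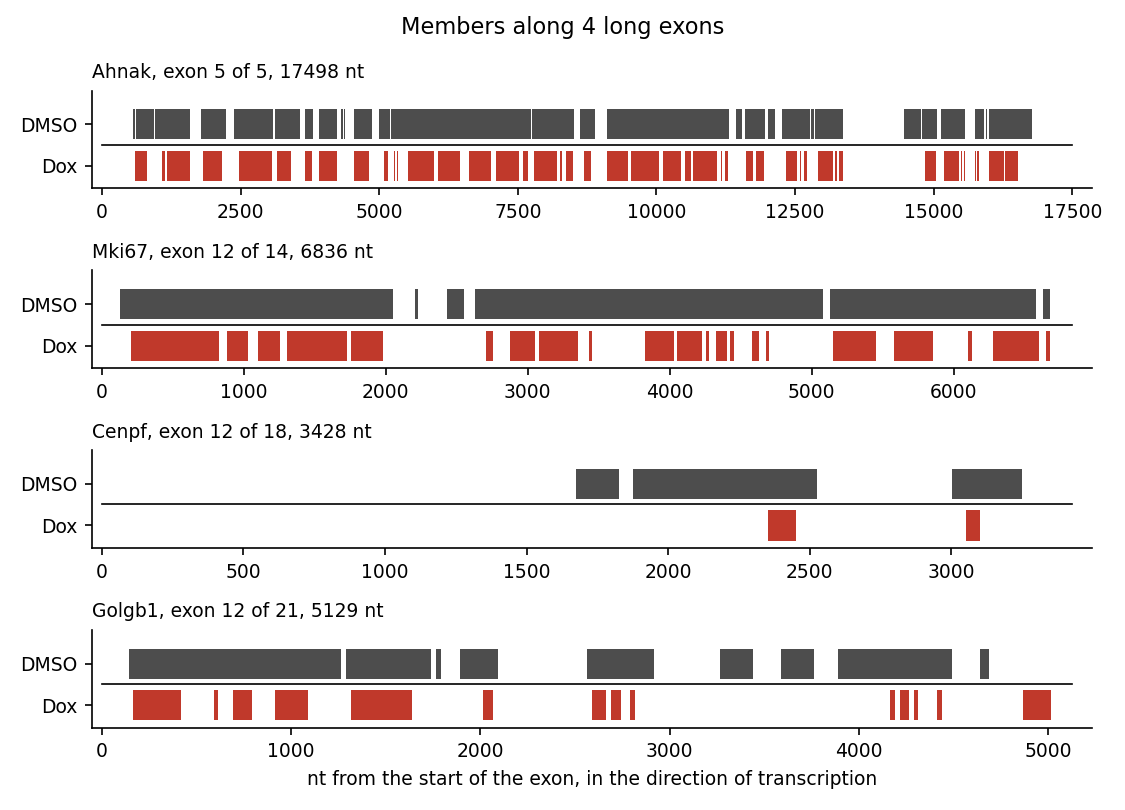
Members of the DMSO list (grey) and the Dox list (red) drawn to scale along the longest exon with a member of Ahnak, Mki67, Cenpf (exon 12) and Golgb1 (x axis, nt from the start of the exon). Broad DMSO members stood over several narrower Dox members in Ahnak, Mki67 and Golgb1, and exon 12 of Cenpf held 3 DMSO and 2 Dox members.

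The reverse pattern, Dox members with no DMSO peak, was less common and comprised 281 of 3641 members (7.72%). Over all Dox peaks it comprised 951 of 13001, so the members were near the general rate. Sox3, a single-exon transcription factor gene, had 5 such members between 25 and 200 nt long, with scores from 10.06 to 12.06. Spesp1, a sperm protein gene, and 0610040J01Rik had 4 each, covering 69.4% and 62.1% of their eligible bases, and Csrnp3 had 3. Usp17la, a deubiquitinase gene of the 2C stage, had 4. None of these genes had a DMSO peak in its eligible bases.

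Genes of the 2C stage stood mostly in that direction. Of the 19 listed 2C genes with an eligible long exon, 12 carried a Dox member (25 members in all) and 4 a DMSO member (8 members), beside 12.8% and 14.8% of all such genes. No DMSO peak overlapped any of the 25 Dox members, against 92.3% of all Dox members overlapped. The level of the 2C transcripts was not analysed here, and less methylation and less RNA cannot be told apart in the DMSO list. A missing DMSO peak therefore does not show that a 2C transcript was unmethylated. Dox peaks overlapped all 8 DMSO members, against 59.2% of all DMSO members. The eligible bases under peaks numbered 9482 in the Dox list and 1544 in the DMSO list over the 13 genes. Near-identical second loci were found for 17 of the 25 Dox members and for all 8 DMSO members, so the copy of origin was uncertain for them. How reads that match several copies were placed was not stated.

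In the Zscan4 genes, zinc-finger factors of the 2C stage, the lists met in the last exon and parted in exon 2. Zscan4c, Zscan4b and Zscan4f had 1, 2 and 1 Dox members in exon 2, which is 472 nt long in each, with best scores of 38.1, 20.6 and 13.8, and no DMSO peak there. In the last exon they had 2, 3 and 2 DMSO members with best scores of 11.64, 12.09 and 12.97. Each of these lay within a spliced Dox peak of 1225, 1075 or 1175 nt, which is no member because it crosses a junction. Accordingly the eligible bases under Dox peaks came to 95.7%, 95.7% and 97.8%, against 37.6%, 25.1% and 39.6% under DMSO peaks.

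All but 1 of the other 2C genes with a member had members in the Dox list only. The exception, Gm6763, had 1 DMSO member (score 12.16) and no Dox member. Dox peaks of other classes covered 100% of its eligible bases, and DMSO peaks 60.8%. Tcstv1 carried the best-scoring Dox member of all (53.0), only 50 nt long and with 1 GGAC. The deubiquitinase genes Usp17lb, Usp17lc, Usp17ld and Usp17le had 2 or 3 members each, over 65.6% to 84.2% of their eligible bases. Tdpoz3 had 2 members, and Zfp352 had a single member of 25 nt with a score of 10.19. Duxf3, the annotated Dux gene, had 3 members with scores from 13.14 to 20.59, and since the induced transgene encodes DUX too, its RNA and that of the genomic copies cannot be told apart here. Outside the list, BC080695 (score 26.8) and Gm21319 (22.0) were among the 5 best Dox members without a DMSO peak, and both had near-identical second loci.

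Of the 16 pluripotency genes with an eligible long exon, 6 had a DMSO member (37.5%) and 5 a Dox member (31.2%), beside 14.8% and 12.8% of all such genes, with 8 and 6 members in all. Sox2, a single exon of 2057 nt, had 1 DMSO member of 1425 nt (score 12.8) and 1 Dox member of 1350 nt (score 18.6), and all of its 757 eligible bases lay under a peak in both lists. Both members were longer than those bases, so they also covered sequence that was untranslated or within 200 nt of the stop codon. Their middle base alone made them members. Nr0b1, a nuclear receptor gene, had 1 member in each list over 20.6% and 18.5% of its eligible bases. Prdm14, a regulator of naive pluripotency, had 2 DMSO members and no Dox peak over them. The single DMSO members of Esrrb and Tbx3, both transcription factors, had spliced Dox peaks over them. Klf5 and Utf1 had members in the Dox list only, but DMSO peaks of other classes covered 94.9% and 98.2% of their eligible bases. Nanog, Pou5f1, Sall4, Klf2, Klf4, Zfp42, Lin28a and Fgf4 had an eligible long exon and no member in either list. They need not be free of peaks, since those near the stop codon and of other classes are no members.

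Of the 18 genes of the m6A machinery with an eligible long exon, 12 (66.7%) carried a member in each list. Among all such genes, expressed or not, the shares were 14.8% for DMSO and 12.8% for Dox. The machinery genes held 22 DMSO members and 23 Dox members. Among the writer subunits, Rbm15 had 3 and 2 members over 85.1% and 79.5% of its eligible bases, Rbm15b 4 and 3 over 69.3% and 65.3%, and Cbll1 1 and 1 over 98.7% in both lists. Virma went from 4 members over 37.2% to 2 over 7.36%. Zc3h13 had 2 DMSO and 5 Dox members over 78.9% and 62.7%, and a DMSO peak of 1500 nt that crossed a junction stood over 3 of the Dox members. Among the readers, Ythdf1, Ythdf2 and Ythdf3 had 1, 1 and 2 DMSO members and 2, 3 and 1 Dox members, with 98.1%, 86.4% and 79.3% of the bases under DMSO peaks and 97.2%, 84.6% and 52.8% under Dox peaks. The catalytic subunit genes Mettl3 and Mettl14 had an eligible long exon and no member. The demethylase genes Alkbh5 and Fto had 1 member in each list, and Alkbh5 had more bases under Dox peaks, 523 against 448.

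Genes of genome stability and mitosis carried 111 DMSO members in 19 genes and 95 Dox members in 20 genes, of 25 with an eligible long exon. These were 76.0% and 80.0% of the genes, beside 14.8% and 12.8% of all such genes. Dox peaks overlapped 46.8% of these DMSO members, against 59.2% of all members, and all 95 Dox members were overlapped, against 92.3% of all Dox members. The bases under peaks came to 33095 and 18198. Besides Mki67 and Cenpf, Aspm, a spindle-pole protein, had 11 and 6 members, Brca1 8 and 8, and Slx4, a nuclease scaffold, 6 and 7. Chromatin regulators carried 167 DMSO members in 35 genes (89.7%) and 169 Dox members in 33 genes (84.6%) of 39, beside 14.8% and 12.8% of all such genes, and 71.3% of the DMSO members were overlapped. Their bases under peaks came to 80179 for DMSO and 61819 for Dox. The histone H3 lysine 4 methyltransferases led with 17 and 13 members in Kmt2d, 14 and 13 in Kmt2a and 12 and 13 in Kmt2c, while Mga had 11 and 11 and Chd7, a chromatin remodeller, 8 and 9. Kmt2d kept 60.8% of its eligible bases under Dox peaks, after 64.8% under DMSO peaks, whereas Kmt2c went from 46.8% to 20.02%.

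Zinc-finger genes (by the symbol prefixes Zfp, Zscan, Zkscan, Zbtb, Zfhx and Znf) encode many of their finger arrays in 1 long exon. A DMSO member was present in 163 of the 452 with an eligible long exon (36.1%) and a Dox member in 109 (24.1%), beside 14.8% and 12.8% of all genes. The 455 DMSO and 298 Dox members gave a ratio of 1.53, against 1.21 for all members. Of these DMSO members 48.1% were overlapped, against 59.2% of all DMSO members. GGAC was present in 49.7% (45.1 to 54.3) of their DMSO members, against 62.4% (60.9 to 63.9) of DMSO members in other genes, a difference of -12.7 points (-17.5 to -7.89). In DMSO members of over 50 to 150 nt it was -13.1 points (-22.0 to -3.87), and in those of over 150 to 300 nt -17.2 points (-26.6 to -8.40). For DMSO the intervals included 0 at 50 nt or less (-2.95 points, -9.31 to 5.09) and over 300 nt (-5.16 points, -13.75 to 0.319). The Dox list gave -6.29 points (-12.2 to -0.539) over all lengths and -10.9 points (-17.9 to -0.941) at 50 nt or less. Its other intervals included 0, with -7.10 points (-18.1 to 4.01) from over 50 to 150 nt. From over 150 to 300 nt the difference was 1.23 points (-9.34 to 9.24), and over 300 nt -1.30 points (-10.8 to 3.22). Near-identical second loci were found for 13.0% of the DMSO members of zinc-finger genes, against 4.56% of the others. The genes with most members besides Zfhx3 were Zfp462 with 12 and 13, Zfp646 with 7 and 8, Zfp292 with 12 and 2 and Zfp518b with 6 and 7.

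Of 24 regulators listed as genes with a single coding exon, 8 (33.3%) had a DMSO member and 10 (41.7%) a Dox member, beside 14.8% and 12.8% of all eligible genes, with 13 and 17 members in all. Junb, a component of AP-1, had 2 and 3 members over 57.9% and 20.4% of its eligible bases, while Jund had 2 and 1 over 66.6% and 81.8%. Foxd3 had 64.1% of its eligible bases under DMSO peaks and 60.0% under Dox peaks, and Klhl11, which has 2 exons in the transcript used, 40.2% and 37.6%.

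The best-scoring DMSO members lay mostly in genes known to be strongly transcribed in most cells. Rps19 (82.5), Hnrnpl (56.0), Hspa8 (35.5), Actg1 (35.4) and Actb (26.7) led it, and the peaks of the first 4 had a Dox peak over them, with scores of 25.1, 27.9, 12.8 and 15.7. The best DMSO member of Actb had none, although a second member of the same 439-nt exon, 100 nt long, was present in both lists with identical ends. Further high-scoring list-only DMSO members lay in Tuba1b (25 nt, score 17.7, an α-tubulin gene with near-identical loci), Rex2 and Zfp980. The Rps19 and Hnrnpl members owe their place to the choice of transcript. On the principal transcript of the APPRIS annotation, the Rps19 peak lies in an exon of 55 nt within 200 nt of the stop codon, and the best Hnrnpl peak in an exon of 72 nt. Such cases were rare among the members that could be checked. Of the 2994 DMSO members in genes with such a transcript, 2916 (97.4%) were also coding and in a long exon on it. Of the 2528 Dox members, 2452 (97.0%) were. The other 1427 DMSO members (32.3%) and 1113 Dox members (30.6%) lay in genes without such a transcript and could not be checked. All members of Ahnak fell outside the exons of its principal transcript, 28 of the 71 DMSO and 44 of the 69 Dox members with that outcome.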

How the data were processed

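Poly(A) RNA from 2 replicates each of DMSO-treated and Dox-treated E14 cells was fragmented and sequenced as immunoprecipitate and input (8 libraries). According to the methods and processing notes, the authors trimmed reads with fastp (0.19.4), aligned them to mm10 with HISAT2 (2.2.1) and called peaks with exomePeak2. They annotated peaks with ChIPseeker and searched motifs with HOMER. Version and settings of exomePeak2, and the treatment of reads that match several loci, are not given in the sources used here. The deposited values were 2 lists of stranded peaks, 1 per treatment, each with a score, −log10 of the p-value, of at least 10. Both replicates went into each list. Read depth was not analysed here and limits which peaks could be called.

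Peaks were placed on the GENCODE vM21 transcript with the longest CDS of each gene by their middle base in transcript coordinates. Transcripts cut from the genome matched the annotated sequence in 5957 of 5957 cases. Peaks overlapped when they shared at least 1 base on the same strand. Shares carry Wilson intervals, differences of shares Newcombe intervals and ratios of counts or densities exact conditional intervals (95%). No test between treatments was possible. Near-identical loci were found with blastn 2.17.0 (90% of the member aligned at 98% identity), and repeats within the same gene counted as well. Python 3.11.15, numpy 2.4.6, scipy 1.17.1, matplotlib 3.10.9 and samtools 1.23.1 were used, and the placement of peaks and the intervals were tested on simulated data. Named genes were those with most members, the best-scoring members, the best-scoring members and most members without a peak in the other list, the longest exons, and the genes of fixed lists with most members. Further genes of those lists were named after their values were seen. The members and the gene lists were chosen with earlier results of these data known. In all 15 alternatives were tried, among them other exon lengths, transcripts, score limits and overlaps. One gene that the naming rule selected is not reported here.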

Additional observations from a re-analysis of the deposited data

How the results depend on the processing

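No paired analysis was possible because each list combines both replicates of a treatment, and for the same reason no replicate could be left out. The ratio of DMSO to Dox members turned from 1.21 to 0.787 at equal list sizes. Given below are shares and density ratios that moved beyond their interval, and member counts that changed by a factor of more than 1.5. The causes were not tested. With the principal transcript of APPRIS in place of the longest CDS, there were 2930 DMSO members, of which 60.6% were overlapped, and 91.1% of the Dox members were overlapped. Genes without such a transcript were left out there, and they held 1427 (32.3%) of the 4421 DMSO members. A minimum score at the DMSO median left 1888 DMSO and 1427 Dox members, 44.0% and 70.4% overlapped and 75.4% and 77.8% with GGAC, and density ratios of long over short exons of 3.49 and 4.56. At equal list sizes 2865 DMSO members remained, 75.6% overlapped and 72.4% with GGAC, with a density ratio of 4.11, and 80.8% of Dox members were overlapped. With the best-scoring member of each gene (1913 and 1652), 70.1% of the DMSO members were overlapped, 70.9% and 70.8% held GGAC, and the density ratios were 2.67 and 3.34. When at least 50% of the peak had to be shared, 49.0% and 90.7% were overlapped, and when 50% of both peaks had to be shared, 41.1% and 53.3%. Exons of at least 600 nt gave density ratios of 3.53 and 4.36, exons of at least 1000 nt 3.04 and 3.43, and spliced peaks placed by their middle base 2.03 and 2.75. Bases covered by single-block peaks, per kb, gave 12.4 and 15.3. That measure left out spliced coding peaks, which held 951550 nt in the DMSO list, against 192150 nt in single-block peaks of shorter exons. Peaks over 400 nt from the stop codon gave 5.42 in the Dox list. Any DRACH word was present in 87.9% and 88.7% of members, and GGAC in 56.1% and 55.3% of members of 75 to 150 nt. Without members that had a near-identical second locus, an alternative chosen after seeing the data, 93.3% of Dox members were overlapped.

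A peak list gives neither reads nor input, and less methylation, less RNA and fewer reads cannot be told apart where a peak is missing. The peak p-value grows with depth, and the lists differ in size. The class of a peak depends on the transcript chosen for its gene, and the copy of origin is uncertain for peaks of repeated genes.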

Other observations

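Long coding exons also held clusters of members outside the lists described. In Mmrn2, a gene of the extracellular matrix protein multimerin 2, 1 DMSO member of 1625 nt in exon 6 (1794 nt) met 7 Dox peaks, which covered 41.5% of it. The opposite arrangement, 1 Dox member over several DMSO peaks, was seen in Cstf2t, a retrogene of a polyadenylation factor, where a Dox member of 775 nt met 4 DMSO peaks that covered 74.2% of it, and in Mcm9, a helicase gene, where 4 DMSO peaks covered 17.2% of a Dox member of 725 nt. In Spen, a transcriptional repressor gene with an exon of 8020 nt, 3 DMSO peaks covered 88.2% of a Dox member of 1275 nt, and in Cdca2, a mitotic phosphatase regulator, 3 covered 93.6% of one of 1175 nt. These genes are examples among 101 DMSO members and 10 Dox members that each met 3 or more peaks of the other list.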
